A study of Mus musculus with 12 samples.

Results

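Cystine and amino acid transporters of the plasma membrane were followed in sorted mouse thymocytes with or without knockout of Satb1, whose product folds chromatin in the T cell nucleus. The genes were chosen by name, with earlier results of these data known. They are Slc7a11, Slc3a2, Slc7a1, Slc7a5, Slc7a6, Slc7a7, Slc7a8, Slc1a5, Slc38a1 and Slc38a2, 10 of the 49997 genes counted. The shares of all genes set beside their counts below are therefore a description and not a test of an excess. The study sequenced poly(A) RNA in 12 libraries that form 4 groups of 3. CD4 KO and CD4 WT are CD4 thymocytes, the later stage that has kept the CD4 co-receptor, with the genotype Satb1 KO or WT. DP KO and DP WT are double-positive thymocytes, which carry both CD4 and CD8, with the same genotypes. Tamoxifen, which induced the knockout, is the labelled treatment of all 12 libraries, WT included. The sources used here do not give the Cre driver, the deleted part of Satb1, the strain, the age of the mice or the sorting gates. The labels do not say whether replicates are separate mice, so each p-value measures only the spread between libraries, which may be technical.

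Most of these transporters work in heteromers. SLC3A2, also called CD98 heavy chain, is a glycoprotein that carries a partner, the light chain, to the cell surface, and the light chain decides what is moved. With SLC7A11 it forms system xc-, which takes up cystine in exchange for glutamate. Cystine is reduced to cysteine inside the cell, where it limits glutathione synthesis. With SLC7A5 or SLC7A8 it exchanges large neutral amino acids such as leucine, and with SLC7A6 or SLC7A7 it exchanges cationic for neutral amino acids. SLC7A1 takes up arginine and lysine without a heavy chain, SLC1A5 exchanges small neutral amino acids and glutamine, and SLC38A1 and SLC38A2 take up glutamine and alanine together with sodium. Activated T cells are known to raise several of these carriers when they begin to grow. A pair of well-known switches act on this family at the DNA: ATF4, which answers amino acid shortage through the amino acid response element, and NRF2, which answers oxidative stress through the antioxidant response element.

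Stretches of promoter windows come first, as examples of the letters of these elements before some of the genes. RefSeq windows for GRCm38.p6 were matched for 7 of the 10 genes, with 13 start sites, and the 250 bases before each start were searched on both strands for the core of the amino acid response element (TGATGNAA), the core of the antioxidant response element (TGACNNNGC) and the E-box CACGTG. No match overlapped another in the windows of these genes. The first core is found in 3.45% of 32851 windows of the same length, the second in 10.2% and the E-box in 6.02%. The 30 bases around the matches in 4 of these genes are given 5′ to 3′ on the strand of the gene, with the matching letters in capitals.
Slc7a11, minus strand, chr3:50443651-50443680: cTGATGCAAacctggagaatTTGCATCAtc
Slc7a7, minus strand, chr14:54417923-54417952: tagaagcTGATGCAAcagcttccccgaggg
Slc7a7, minus strand, chr14:54418067-54418096: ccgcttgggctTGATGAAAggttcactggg
Slc38a2, minus strand, chr15:96699736-96699765: ccccgcccacTGACGCGGCgccccgccgct
Slc7a6, plus strand, chr8:106168843-106168872: ccggtgcgagTGACGTGGCgtgggcggggc
Slc7a11, the cystine carrier, holds the first core in both orientations, at 66 to 59 and at 47 to 40 bases before its start at 50443613 on chromosome 3. Windows with this core 2 or more times number 13, or 0.0396% of all. The Slc7a11 stretch also lies within a counted exon of the gene, at 50443641 to 50443720. The first Slc7a7 stretch and the Slc7a6 stretch overlap counted exons as well, at 54417901 to 54417944 and at 106168845 to 106169200. The Slc7a7 matches belong to different starts of that gene, and those of Slc38a2 and Slc7a6 shown here are the antioxidant core, not the full set of its matches. The E-box letters were in none of the 13 windows. Slc7a11 and Slc7a7, which hold the first core, changed in opposite directions in the knockout at both stages, as the values below show. The count of Slc7a7 is uncertain, for a reason given below, and the part of this core in either change was not tested. A match is a run of letters and not a measured site, and a window without one shows only that these letters are not in it.

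The least deeply sequenced library, DP WT replicate 3, had 22790504 counts and the deepest, CD4 KO replicate 2, had 62422640, and a count of 3, taken as the limit of detection, corresponded to 0.0464 to 0.134 CPM, which covers counting error only. CPM are counts scaled to the library total, after TMM scaling of all 12 libraries together. The lowest count of any transporter in any library was 22, and all 10 passed the low-count filter in every comparison. Satb1 itself was at 1469 to 1545 CPM in CD4 KO against 3000 to 3513 CPM in CD4 WT, and at 2455 to 2873 CPM in DP KO against 3832 to 3888 CPM in DP WT, so every KO library lay below the WT libraries of its stage, although transcript was counted in each. Summed over 8 markers of DP cells, the libraries held 2647 to 3233 CPM in CD4 KO, 1477 to 1914 CPM in CD4 WT, 7351 to 7608 CPM in DP KO and 12349 to 13442 CPM in DP WT. Summed over 6 markers of CD4 cells they held 1333 to 1438, 2428 to 2691, 1144 to 1182 and 1395 to 1505 CPM in the same order of groups. Cd4 itself, which is in both lists, made up most of the second sum in the DP libraries. The 6 CD4 cell markers did not move together. Zbtb7b, which sets the CD4 lineage, was at 20.0 to 41.5 CPM in CD4 KO against 355 to 413 CPM in CD4 WT, and Cd40lg and Ccr7 were likewise lower in every CD4 KO library. Il7r was at 433 to 521 CPM in CD4 KO against 456 to 481 CPM in CD4 WT, and S1pr1 at 149 to 171 CPM in CD4 KO against 168 to 179 CPM in CD4 WT. Il7r was at 123 to 170 CPM in DP KO against 7.28 to 10.3 CPM in DP WT, and S1pr1 at 8.49 to 17.1 CPM in DP KO against 1.56 to 2.56 CPM in DP WT. Cd8a was at 1651 to 1692 CPM in DP KO and 2253 to 2725 CPM in DP WT, and at most 168 CPM in any CD4 library. Myeloid markers, 6 genes, summed to 10.2 to 38.9 CPM in CD4 KO, 12.1 to 34.3 CPM in CD4 WT, 8.93 to 11.6 CPM in DP KO and 13.1 to 17.9 CPM in DP WT. B cell markers, 5 genes, summed to 19.9 to 29.2, 5.93 to 16.5, 20.8 to 26.2 and 15.9 to 20.8 CPM. DP WT replicates 1 and 2 stood apart, since Xist, the RNA of the inactive X chromosome, was at 0.845 and 0.273 CPM in them, while the remaining 10 libraries had 190 to 601 CPM. Ddx3y, a gene of the Y chromosome, was at 109 to 127 CPM in those 2 libraries and at 40.3 to 118 CPM in the other 10, so those 10 held both transcripts. DP results are therefore also given with DP WT replicate 3 as the lone DP WT library, where the spread is taken from the other groups in the comparison.

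The comparison of knockout and wild type in CD4 thymocytes asked which transporters changed at the later stage. Slc38a1, Slc7a8, Slc7a7 and Slc7a1 rose, Slc7a11 and Slc7a6 fell, and Slc3a2, Slc7a5, Slc1a5 and Slc38a2 did not pass the test. That is 6 of 10 called at an edgeR adjusted p under 0.05, beside 39.7% of all 17316 genes tested, with 4 of 10 higher beside 20.9% and 2 of 10 lower beside 18.8%. The median log2 fold change of the 10 genes was 0.14, and that of all genes 0.00. The CPM of the groups did not overlap for 6 of the 10, beside 51.9% of all genes. The count of 6 was the same in every alternative run.

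Among the sodium-coupled carriers, Slc38a1 (chromosome 15, 96571418 to 96643438 of mm10, minus strand) stood at 393, 393 and 400.4 CPM in the CD4 KO libraries, against 195, 194 and 175 CPM in the CD4 WT libraries. The KO libraries lay close together and far above all WT libraries. The log2 fold change was 1.08 ± 0.07 (SE; n = 3 each; edgeR adjusted p = 1.90e-06), and it lay above 1 in each of the 3 batches taken singly. Its partner in the family, Slc38a2 (chromosome 15, 96687392 to 96699728, minus strand), was at 462, 444 and 563 CPM in CD4 KO against 470.1, 445 and 577 CPM in CD4 WT. Replicate 3 was the highest in both groups, and the groups overlapped almost completely (log2 fold change -0.02 ± 0.12, edgeR adjusted p = 0.908).

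Of the light chains, Slc7a8 (chromosome 14, 54722215 to 54781886, minus strand) had the largest rise, at 3.51, 3.78 and 3.36 CPM in CD4 KO against 0.962, 1.08 and 0.737 CPM in CD4 WT. Every KO library was more than 3 times as high as any WT library, at a low level in both. Its log2 fold change was 1.92 ± 0.23 (edgeR adjusted p = 9.76e-05). Slc7a7 (chromosome 14, 54369442 to 54420068, minus strand) was at 4.30, 4.71 and 5.14 CPM in CD4 KO against 2.87, 2.98 and 1.98 CPM in CD4 WT, without overlap, with a log2 fold change of 0.84 ± 0.20 (edgeR adjusted p = 0.00763). The value of Slc7a7 is uncertain, because 228 of its 3321 counted bases are shared with exons of Oxa1l on the other strand and the strand setting of the counting is not given in the sources used here. Oxa1l was at 74.0 ± 1.76 CPM in CD4 KO and 67.5 ± 2.30 CPM in CD4 WT (SD). Macrophages are known to carry SLC7A7, and the sums of the myeloid markers overlapped between CD4 KO and CD4 WT. The part of myeloid cells in the rise of Slc7a7 was not tested. Nor was that of B cells, whose markers summed higher in CD4 KO without overlap, mostly through Cd79b.

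Slc7a11 (chromosome 3, 50364936 to 50499087, minus strand), the cystine carrier, was already low in CD4 cells. It stood at 2.78, 3.89 and 4.26 CPM in CD4 KO against 10.5, 10.04 and 8.74 CPM in CD4 WT, so each KO library was below each WT library. The log2 fold change was -1.42 ± 0.18 (edgeR adjusted p = 0.000151), and the adjusted p was at most 0.00144 over 13 alternatives. In these bulk libraries, fewer cells that express a gene and less RNA per cell cannot be told apart. The sum of the DP markers was higher in CD4 KO than in CD4 WT, as given above. Slc7a11 in DP KO, at 8.02 ± 0.544 CPM (SD), was itself below its level in CD4 WT, at 9.75 ± 0.899 CPM. The part of DP cells in the CD4 sort was not tested.

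Slc7a6 (chromosome 8, 106168219 to 106198714, plus strand) was the other light chain that fell, to 86.5, 91.5 and 87.7 CPM in CD4 KO, against 113, 104 and 105 CPM in CD4 WT. The groups did not overlap, but the step was small (log2 fold change -0.28 ± 0.06, edgeR adjusted p = 0.00485). Slc7a5 (chromosome 8, 121881146 to 121907686, minus strand), which carries leucine, was at 65.7, 78.95 and 67.3 CPM in CD4 KO against 63.9, 55.3 and 67.7 CPM in CD4 WT, with overlap (log2 fold change 0.18 ± 0.10, edgeR adjusted p = 0.157). The heavy chain Slc3a2 (chromosome 19, 8706882 to 8723369, minus strand) was at 104, 107 and 116 CPM in CD4 KO against 104, 85.4 and 117 CPM in CD4 WT, and CD4 WT replicate 2 was the lowest of the 6 (log2 fold change 0.10 ± 0.11, edgeR adjusted p = 0.524).

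Slc7a1 (chromosome 5, 148327410 to 148399904, minus strand), the arginine carrier that needs no heavy chain, was at 128, 125 and 121 CPM in CD4 KO against 104, 101 and 108 CPM in CD4 WT. The groups were apart, with a log2 fold change of 0.26 ± 0.06 (edgeR adjusted p = 0.00658). Slc1a5 (chromosome 7, 16781334 to 16798274, plus strand), the exchanger of glutamine, was at 204, 204 and 177 CPM in CD4 KO against 198, 186 and 177 CPM in CD4 WT. Replicate 3 was the lowest in both groups, and the groups overlapped (log2 fold change 0.06 ± 0.08, edgeR adjusted p = 0.551).

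**Figure D1:**
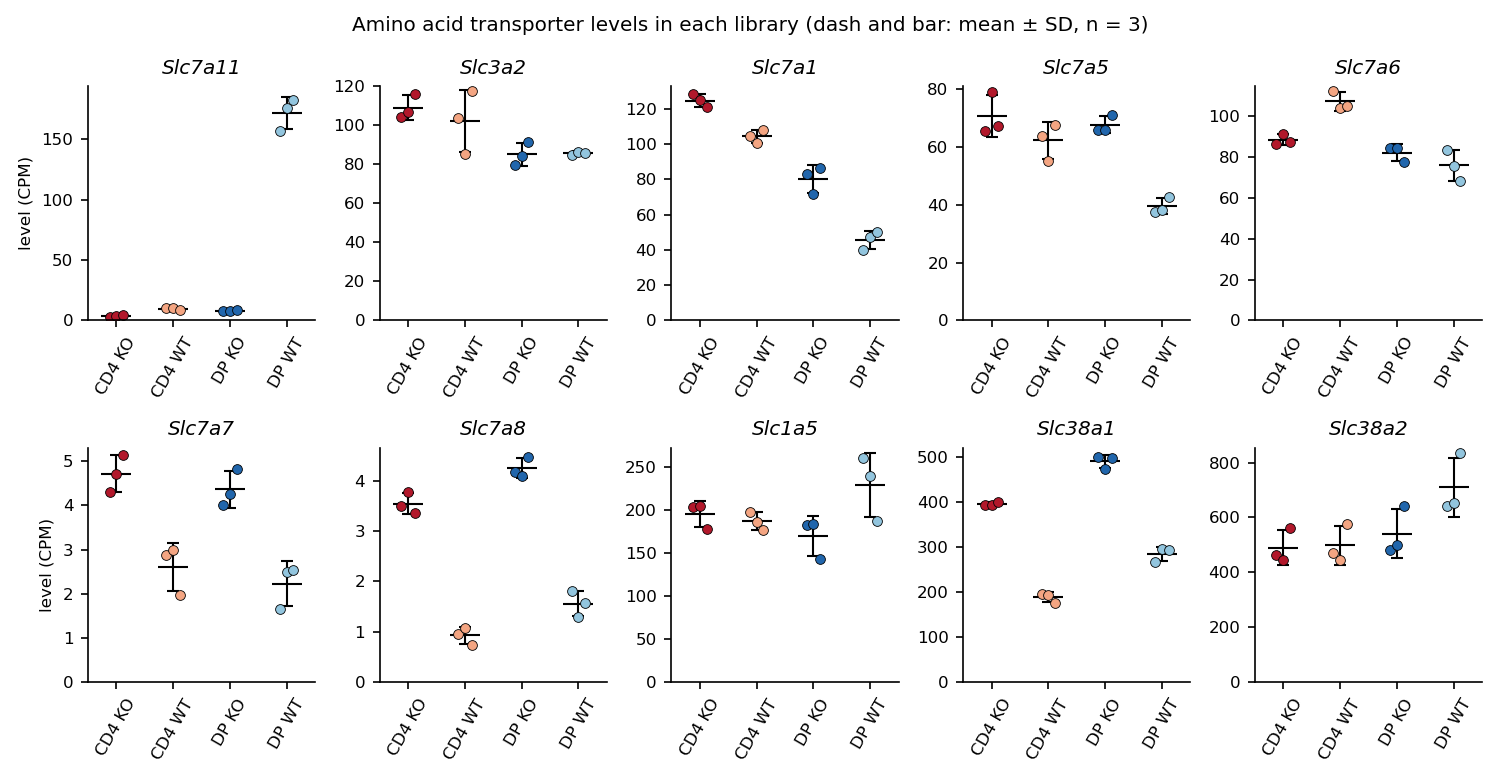
Level of each transporter in CPM (vertical axes, linear and from 0, with their own scale) in the 12 libraries, grouped as CD4 KO, CD4 WT, DP KO and DP WT; points are libraries and the dash and bar are mean ± SD (n = 3). Slc7a11 is at 157 to 182 CPM in DP WT and at or below 10.5 CPM in the other groups, while Slc38a1, Slc7a7 and Slc7a8 are higher in KO than in WT at both stages.

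The same question was put to DP thymocytes, with the same number of libraries. Slc7a8, Slc7a7, Slc7a1, Slc38a1 and Slc7a5 rose, Slc7a11 and Slc1a5 fell, and Slc3a2, Slc7a6 and Slc38a2 did not pass the test. In total 7 of 10 were called beside 30.9% of 16776 genes tested, with 5 of 10 higher beside 16.8% and 2 of 10 lower beside 14.1%. The median log2 fold change of the 10 genes was 0.46 and that of all genes 0.01. The CPM did not overlap for 7 of 10, beside 45.4% of all genes. With only DP WT replicate 3 for comparison 5 were called, and Slc7a7 and Slc1a5 were not (edgeR adjusted p = 0.139 and 0.618).

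Slc7a11 was at 7.50, 7.97 and 8.59 CPM in the DP KO libraries, against 157, 176 and 182 CPM in the DP WT libraries. Every KO library lay far below every WT library, the widest gap of any transporter, and the log2 fold change of -4.41 ± 0.09 (edgeR adjusted p = 4.96e-10) was -4.39, -4.47 and -4.41 in the 3 batches. With DP WT replicate 3 alone as the control it was -4.51. The DP KO libraries also held fewer transcripts of the DP markers than DP WT libraries, with a sum of 7351 to 7608 CPM against 12349 to 13442 CPM. The part of cell make-up in the fall of Slc7a11 was not tested.

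The leucine carrier Slc7a5 was at 66.0, 66.0 and 71.0 CPM in DP KO against 37.5, 38.3 and 42.7 CPM in DP WT. All KO libraries were above all WT libraries, with a log2 fold change of 0.79 ± 0.08 (edgeR adjusted p = 3.67e-05; 0.67 with DP WT replicate 3 alone). The arginine carrier Slc7a1 was at 82.96, 71.5 and 86.3 CPM in DP KO against 40.1, 47.0 and 49.8 CPM in DP WT, again without overlap. Its log2 fold change was 0.83 ± 0.10 (edgeR adjusted p = 0.000138; 0.69 with DP WT replicate 3 alone).

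Slc38a1 was at 499, 473 and 497 CPM in DP KO against 266, 294 and 292 CPM in DP WT, and the groups were far apart (log2 fold change 0.80 ± 0.07, edgeR adjusted p = 1.18e-05). Slc38a2, the sodium-coupled carrier known to be made in answer to amino acid shortage, was at 480.4, 498 and 643 CPM in DP KO against 641, 654 and 834 CPM in DP WT. DP KO replicate 3 lay just above the lowest DP WT library, and replicate 3 was the highest of both groups. The log2 fold change of -0.38 ± 0.13 did not pass (edgeR adjusted p = 0.0578), but within the batches it was -0.42, -0.39 and -0.38, and with the replicate number as a block it passed (edgeR adjusted p = 0.00204).

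The exchanger Slc1a5 was at 183, 184 and 143 CPM in DP KO against 260.0, 239 and 187 CPM in DP WT. Replicate 3 was again the lowest in both groups, and DP WT replicate 3 lay just above the highest KO library. The log2 fold change of -0.42 ± 0.14 passed narrowly (edgeR adjusted p = 0.0460; 0.00117 with the replicate block). The call was lost when DP KO replicate 1, 2 or 3 or DP WT replicate 1 or 2 was left out (edgeR adjusted p from 0.0639 to 0.125).

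The rarer light chains moved as they did in CD4 cells. Slc7a8 was at 4.19, 4.104 and 4.48 CPM in DP KO against 1.80, 1.30 and 1.56 CPM in DP WT (log2 fold change 1.46 ± 0.21, edgeR adjusted p = 0.000371), and the groups did not overlap. Slc7a7, uncertain for the reason given above, was at 4.01, 4.25 and 4.82 CPM in DP KO against 1.64, 2.50 and 2.54 CPM in DP WT, also without overlap (log2 fold change 0.99 ± 0.22, edgeR adjusted p = 0.00604). Oxa1l was at 83.5 ± 2.57 CPM in DP KO and 65.7 ± 0.527 CPM in DP WT (SD), and its part in the rise of Slc7a7 was not tested. The sum of the 6 myeloid markers was lower in every DP KO library than in any DP WT library, while Csf1r, Adgre1 and C1qa among them overlapped between the groups. The part of myeloid cells in the DP values of Slc7a7 was not tested.

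The more abundant light chain Slc7a6 was at 84.7, 84.7 and 77.5 CPM in DP KO against 83.7, 75.8 and 68.6 CPM in DP WT, with overlap (log2 fold change 0.12 ± 0.09, edgeR adjusted p = 0.310). The heavy chain Slc3a2 was at 79.7, 84.0 and 91.5 CPM in DP KO against 84.6, 86.5 and 85.9 CPM in DP WT. The KO libraries lay on both sides of the WT libraries, and the log2 fold change was 0.00 ± 0.07 (edgeR adjusted p = 0.996). Its value stayed within -0.03 to 0.05 over 14 alternatives.

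**Figure D2:**
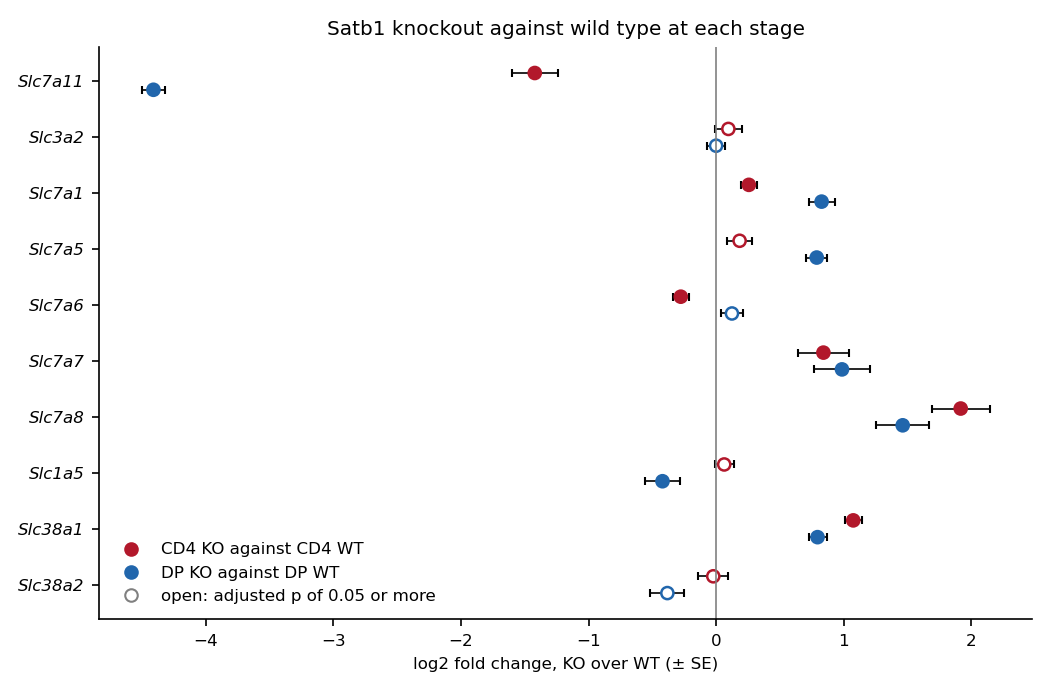
Log2 fold change of KO over WT (horizontal axis, ± SE) for each transporter (rows), in CD4 (red, upper mark of a row) and DP thymocytes (blue, lower mark); filled marks have an edgeR adjusted p under 0.05. Slc7a11 lies at -1.42 in CD4 and -4.41 in DP, Slc38a1, Slc7a7, Slc7a8 and Slc7a1 lie above 0 at both stages, and Slc3a2 lies at 0.10 and 0.00.

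Whether the knockout acted differently at the 2 stages was tested as the effect in CD4 minus the effect in DP, over all 12 libraries. The difference passed for 6 of 10 transporters, beside 27.6% of 18431 genes tested, with 3 above 0 beside 14.3% and 3 below 0 beside 13.3%. It was 3.00 ± 0.18 on the log2 scale for Slc7a11 (edgeR adjusted p = 2.84e-08), whose fall was the deeper in DP cells. It was -0.56 ± 0.12 for Slc7a1 (edgeR adjusted p = 0.00256) and -0.60 ± 0.13 for Slc7a5 (edgeR adjusted p = 0.00274), both of which stood further above WT in DP cells. For Slc7a6 it was -0.39 ± 0.10 (edgeR adjusted p = 0.0112), the fall in CD4 cells set against 0.12 in DP cells.

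For Slc1a5 the difference was 0.49 ± 0.17 (edgeR adjusted p = 0.0433) and for Slc38a1 0.29 ± 0.09 (edgeR adjusted p = 0.0262). The call of Slc1a5 was lost without any single library but CD4 KO replicate 3, CD4 WT replicate 1 or DP WT replicate 3, and that of Slc38a1 without any but CD4 WT replicate 1 or DP WT replicate 1 (edgeR adjusted p of up to 0.135 and 0.116). Slc7a7 (-0.14 ± 0.30, edgeR adjusted p = 0.784), Slc7a8 (0.46 ± 0.28, edgeR adjusted p = 0.256) and Slc3a2 (0.11 ± 0.13, edgeR adjusted p = 0.612) did not pass. Slc38a2 (0.37 ± 0.21, edgeR adjusted p = 0.215) passed with the replicate block (0.00116). With DP WT replicate 3 as the lone DP WT library 3 transporters passed, namely Slc7a11, Slc7a1 and Slc7a6, and Slc7a5 did not (edgeR adjusted p = 0.0647).

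The stages were also compared within a genotype, which uses the same libraries as the comparisons above. In WT cells, 7 of 10 transporters differed between CD4 and DP thymocytes beside 55.1% of 17369 genes tested, with 3 higher in CD4 beside 28.0% and 4 lower beside 27.1%. The CPM of the groups did not overlap for 7 of 10, beside 62.7% of all genes. Slc7a11 was lower in CD4 WT, with a log2 fold change of -4.13 ± 0.10 (edgeR adjusted p = 7.94e-11). Slc7a1 was higher by 1.19 ± 0.09 (edgeR adjusted p = 2.34e-07), Slc7a5 by 0.65 ± 0.09 (edgeR adjusted p = 7.45e-05) and Slc7a6 by 0.49 ± 0.08 (edgeR adjusted p = 0.000257).

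Slc38a1, Slc38a2 and Slc1a5 were lower in CD4 WT than in DP WT, with log2 fold changes of -0.60 ± 0.07 for Slc38a1 (edgeR adjusted p = 2.08e-05), -0.52 ± 0.12 for Slc38a2 (edgeR adjusted p = 0.00548) and -0.30 ± 0.11 for Slc1a5 (edgeR adjusted p = 0.0393). The call of Slc1a5 was lost when CD4 WT replicate 1, 2 or 3 or DP WT replicate 1 or 2 was left out, and with DP WT replicate 3 alone its log2 fold change was 0.000923. Slc3a2 (0.25 ± 0.10, edgeR adjusted p = 0.0501) passed with the replicate block (0.0334). Slc7a8 (-0.73 ± 0.30, edgeR adjusted p = 0.0569) and Slc7a7 (0.24 ± 0.26, edgeR adjusted p = 0.453) did not pass.

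In KO cells 4 of 10 transporters differed beside 21.8% of 16910 genes tested, with 2 higher in CD4 beside 13.9% and 2 lower beside 7.9%. The CPM did not overlap for 6 of 10, beside 40.1% of all genes. Slc7a1 was higher by 0.65 ± 0.08 (edgeR adjusted p = 0.000748) and Slc3a2 by 0.38 ± 0.08 (edgeR adjusted p = 0.00834). Slc7a11 was lower, with a log2 fold change of -1.12 ± 0.18 (edgeR adjusted p = 0.00277), and so was Slc38a1, with -0.29 ± 0.06 (edgeR adjusted p = 0.0115). Slc7a5, at 0.08 ± 0.08 (edgeR adjusted p = 0.540), and Slc7a6, at 0.13 ± 0.06 (edgeR adjusted p = 0.206), did not pass in KO cells. With the replicate block Slc1a5 (0.23, edgeR adjusted p = 0.00222) and Slc38a2 (-0.12, edgeR adjusted p = 0.04998) also passed.

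The level of Slc7a11 in CD4 cells was set beside that of genes of the DP stage. Its mean CPM in CD4 KO was 45.4% of that in DP KO, and in CD4 WT it was 5.67% of that in DP WT. For the recombinase gene Rag1 these shares were 40.4% in KO and 4.50% in WT, for Rag2 51.2% and 5.32%, for the terminal transferase Dntt 49.3% and 7.29%, and for Cd8b1 39.1% and 6.89%. Cd8a, at 9.58% in KO and 4.53% in WT, and Ptcra, at 150.4% in KO and 11.3% in WT, had other shares in KO. How much of the Slc7a11 count in CD4 libraries came from DP cells in the sort was not tested.

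**Figure D3:**
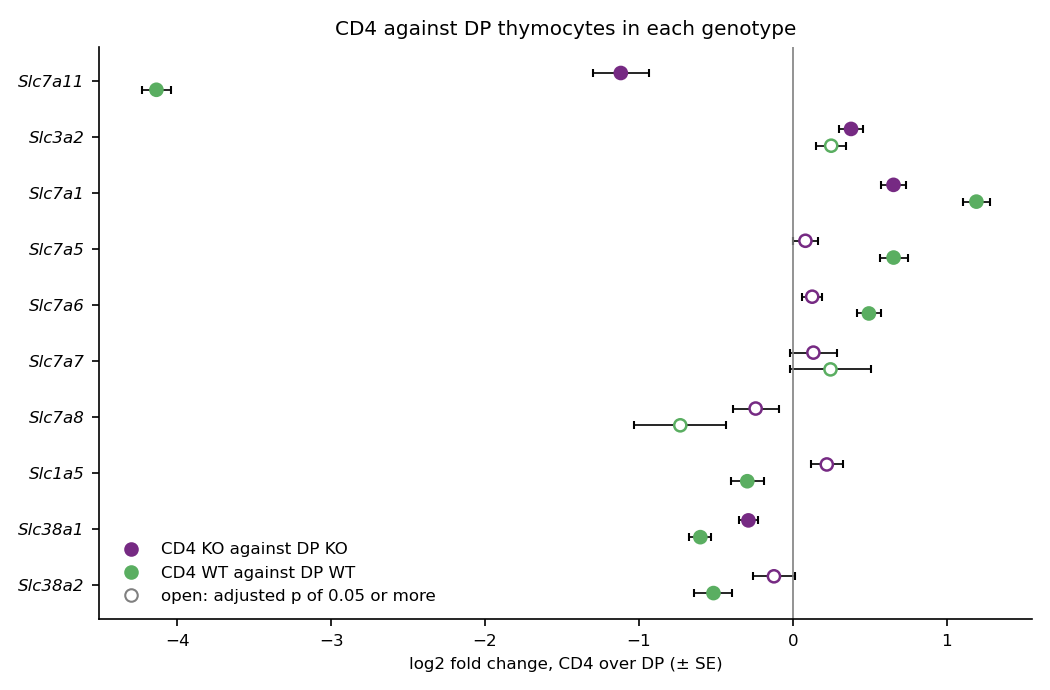
Log2 fold change of CD4 over DP thymocytes (horizontal axis, ± SE) for each transporter (rows), in KO (purple, upper mark of a row) and WT cells (green, lower mark); filled marks have an edgeR adjusted p under 0.05. Slc7a11 is at -1.12 in KO and -4.13 in WT, and Slc7a5 and Slc7a6 are nearer to 0 in KO than in WT.

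The carriers that share the heavy chain were set beside each other per kb of counted exon. This length covers all counted exons of a gene, and the length of the transcripts made was not measured. Shares and ratios between genes therefore depend on the annotation. Slc7a11 made up 2.12%, 2.25% and 2.40% of the summed light chain transcripts in the DP KO libraries, against 37.9%, 41.6% and 42.5% in the DP WT libraries. It was thus the most abundant light chain in every DP WT library and a small part of the sum in every other library. Slc7a5 made up 51.8% ± 1.86 in DP KO and 25.5% ± 1.40 in DP WT (SD, n = 3 each), and Slc7a6 40.9% ± 2.34 in DP KO and 31.9% ± 3.75 in DP WT.

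In CD4 cells the leading light chain per kb of counted exon differed between the genotypes. Slc7a5 made up 51.9% ± 1.79 in CD4 KO and 44.8% ± 2.71 in CD4 WT, and Slc7a6 42.3% ± 1.57 in CD4 KO and 50.3% ± 1.87 in CD4 WT. Slc7a5 was above Slc7a6 in each CD4 KO library, and Slc7a6 was above Slc7a5 in each CD4 WT library, narrowly in replicate 3 (48.2% against 47.8%). This order in CD4 KO rested on the division by length. In CPM, Slc7a6 was above Slc7a5 in every CD4 library of both genotypes, at 86.5 to 91.5 CPM against 65.7 to 79.0 CPM in CD4 KO. Slc7a11 was at 0.982% ± 0.193 in CD4 KO and 2.59% ± 0.291 in CD4 WT. Slc7a7 made up 3.67% ± 0.370 in CD4 KO and 2.00% ± 0.482 in CD4 WT, and Slc7a8 1.18% ± 0.0451 in CD4 KO and 0.304% ± 0.0701 in CD4 WT. The exact permutation test of each light chain's share between KO and WT gave p = 0.1 (two-sided) in both stages, the smallest p that 3 against 3 libraries allow, so none of these shares could pass.

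The ratio of the heavy chain Slc3a2 to the sum of the 5 light chains was 0.476 ± 0.0430 in CD4 KO and 0.435 ± 0.0514 in CD4 WT, a mean log2 difference of 0.13 (exact permutation test, two-sided, p = 0.4). It was 0.386 ± 0.0244 in DP KO and 0.328 ± 0.00393 in DP WT, a mean log2 difference of 0.24 (p = 0.1 in the exact test). In DP cells every KO library was above every WT library, at 0.364, 0.382 and 0.412 in KO against 0.330, 0.330 and 0.323 in WT, while the CD4 groups overlapped. The difference in CD4 cells turned to -0.0808 when Slc7a6 was left out of the sum, and the difference in DP cells was then 0.44. Without division by length the differences were 0.20 in CD4 and 0.79 in DP. Without CD4 KO replicate 3 the CD4 difference was 0.07, without CD4 WT replicate 2 it was 0.06, without CD4 KO replicate 2 it was 0.201 and without CD4 WT replicate 3 it was 0.22.

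**Figure D4:**
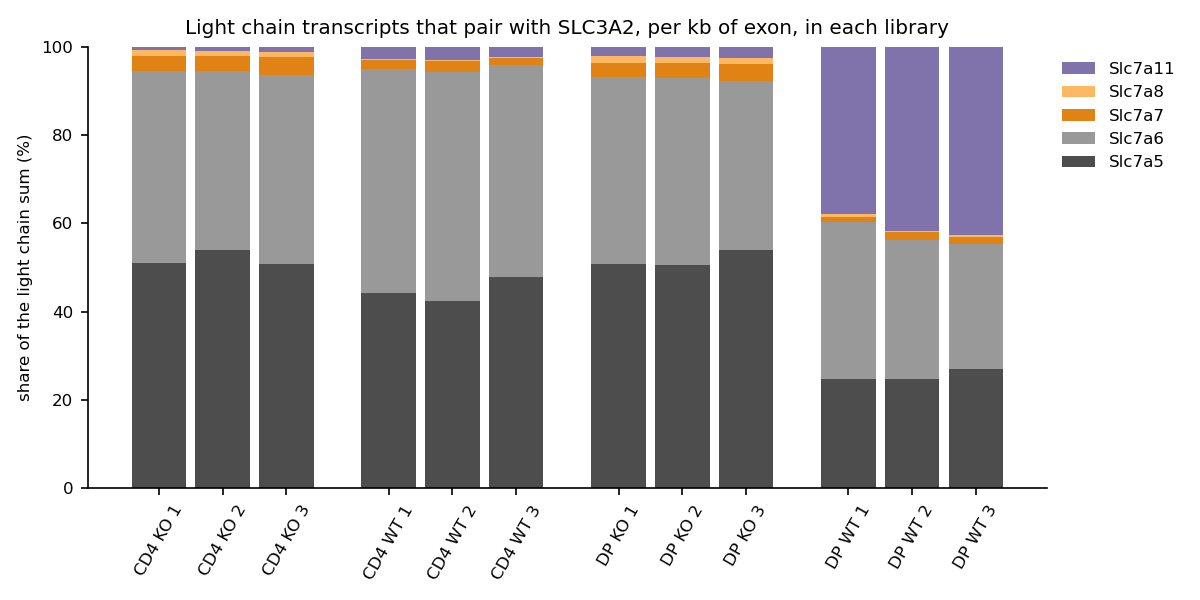
Share of each light chain in the summed light chain transcripts, in percent of CPM per kb of exon (vertical axis, from 0 to 100), in each of the 12 libraries (bars). Slc7a11, the top segment, takes 37.9% to 42.5% in DP WT libraries and 0.792% to 2.83% in all others.

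Across all 10 genes, Slc38a2 had the highest level per kb in each group, with 105 ± 13.7 CPM per kb in CD4 KO, 107 ± 15.1 in CD4 WT, 116 ± 19.2 in DP KO and 152 ± 23.2 in DP WT. Slc1a5 came next, at 66.5 ± 5.21, 63.7 ± 3.64, 57.8 ± 7.99 and 78.0 ± 12.8 CPM per kb in the same order of groups. Slc7a7 and Slc7a8 were near the bottom everywhere, with at most 1.42 ± 0.126 CPM per kb. Slc7a11 was the gene that changed its place most: it was at 18.0 ± 1.39 CPM per kb in DP WT, above Slc3a2 at 14.4 ± 0.159, and at 0.381 ± 0.0802 CPM per kb in CD4 KO, 1.02 ± 0.0939 in CD4 WT and 0.838 ± 0.0568 in DP KO.

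The order of the groups differed from gene to gene. Slc7a11 ran from DP WT through CD4 WT and DP KO to CD4 KO with no overlap between neighbours, and its highest group mean was 47.2 times its lowest. Slc7a1 ran from CD4 KO through CD4 WT and DP KO to DP WT, also without overlap, over 2.73 times. Slc7a8 and Slc38a1 shared an order, from DP KO through CD4 KO and DP WT to CD4 WT, without overlap and over 4.59 and 2.61 times. The means of Slc3a2, Slc1a5 and Slc38a2 spanned 1.28, 1.35 and 1.45 times, and each group overlapped its neighbour in their order. Slc7a5 and Slc7a7 had CD4 KO and DP KO at the top, overlapping each other, and DP WT at the bottom. In Slc7a6 only DP KO and DP WT overlapped, below CD4 KO and CD4 WT.

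The genes whose profile over the 12 libraries was most like that of each carrier were taken from 9766 genes with a mean of at least 5 CPM, by Pearson's r of log2(CPM + 0.5). The libraries come in 4 groups, so the values mostly compare group means, and they are given as a description. Nearest to Slc7a11 were Capn3 (r = 0.995), a calcium-dependent protease gene, Hs6st1 (0.991), a heparan sulfate sulfotransferase gene, and Lyst (0.990), a regulator of lysosome trafficking. Capn3 was at 8.29 CPM in CD4 KO, 14.5 in CD4 WT, 11.7 in DP KO and 69.8 in DP WT. Nearest to Slc38a1 were Wnt8b (0.993), which encodes a secreted signal, Smc4 (0.991), a condensin subunit, and Strip2 (0.991). Nearest to Slc7a1 were Ppip5k2 (0.992), an inositol pyrophosphate kinase gene, Peak1 (0.991) and Ttc39b (0.986).

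Nearest to Slc7a8 were Coro2b (0.986), Trps1 (0.985) and Col27a1 (0.983), a collagen gene, which was at 147 CPM in CD4 KO, 4.48 in CD4 WT, 349 in DP KO and 16.7 in DP WT. Nearest to Slc7a5 were Nsun2 (0.976), an RNA methyltransferase gene, Adpgk (0.974) and Wdr43 (0.972), which acts in ribosome assembly. Slc7a6 lay nearest to Tesk1 (0.977), Pccb (0.971) and Ddrgk1 (0.968), and Slc38a2 nearest to the translation factor gene Eif4g2 (0.976), Pik3c3 (0.973) and Itch (0.965). For Slc7a7 they were Abhd4 (0.952), Kyat3 (0.950) and Snx30 (0.943), for Slc3a2 Rhob (0.932), Spty2d1 (0.904) and Gla (0.892), and for Slc1a5 Repin1 (0.901), Gcdh (0.888) and ATP8 (0.884).

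Genes that act with these carriers were counted from 8 lists, to be read beside 20.9% higher and 18.8% lower of all genes in CD4 KO, and 16.8% higher and 14.1% lower in DP KO. In CD4 KO against CD4 WT, 11 of 27 tested glutathione and thioredoxin genes were higher and 3 lower, and the list had a median log2 fold change of 0.35. Gsr, which reduces oxidised glutathione, was at 70.1 ± 0.545 CPM in CD4 KO and 27.6 ± 2.23 CPM in CD4 WT (log2 fold change 1.35 ± 0.08, edgeR adjusted p = 1.15e-06), and Txn1, thioredoxin, at 168 ± 8.03 CPM in CD4 KO and 87.4 ± 3.24 CPM in CD4 WT. In DP cells Txn1 was called lower, at 223 ± 12.5 CPM in DP KO and 263 ± 15.04 CPM in DP WT (log2 fold change -0.23), and its effect in CD4 minus that in DP was 1.18 ± 0.09 (edgeR adjusted p = 5.41e-07). Txnrd1, which reduces thioredoxin, rose by 0.51 ± 0.06 in CD4 KO. In DP KO against DP WT, 9 of 24 were higher and 3 lower, with a median of 0.19. Gsr rose by 0.61 ± 0.07, and Gclm, the modifier subunit of the enzyme that starts glutathione synthesis from cysteine, was at 22.9 ± 2.67 CPM in DP KO and 12.8 ± 0.652 CPM in DP WT (log2 fold change 0.85 ± 0.11, edgeR adjusted p = 0.000216). The DP count of 12 called genes was 6 without DP KO replicate 1, 7 without DP WT replicate 2 and 4 with DP WT replicate 3 alone.

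The list of the amino acid response around ATF4 also holds Atf4 itself and the kinase genes Eif2ak3 and Eif2ak4, so it is not a list of ATF4 targets alone. Of its tested genes, 12 of 30 were higher and 3 lower in CD4 KO (median 0.30). In DP KO 11 of 28 were higher and 2 lower, with a median of 0.18. Shmt2, a serine-using enzyme of the mitochondrial folate pathway, was at 136 ± 7.95 CPM in CD4 KO and 79.0 ± 5.15 CPM in CD4 WT, and at 123 ± 7.96 CPM in DP KO and 66.2 ± 2.08 CPM in DP WT. Phgdh, which opens serine synthesis, rose by 0.60 ± 0.07 in CD4 KO (edgeR adjusted p = 0.000110), and Aldh18a1, which opens proline synthesis, by 0.81 ± 0.08 in DP KO (edgeR adjusted p = 2.17e-05). The DP count of 13 was 8 without DP WT replicate 2 and 6 with DP WT replicate 3 alone.

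Of the genes of glutamine, arginine and polyamine use, 13 of 25 were higher and 3 lower in CD4 KO (median 0.27), and 12 of 23 were higher and 2 lower in DP KO (median 0.25). Prodh, which breaks down proline, was at 27.3 ± 2.64 CPM in CD4 KO and 6.44 ± 0.229 CPM in CD4 WT. Ass1, which acts in the route from citrulline to arginine, fell to 28.2 ± 3.502 CPM in CD4 KO, against 71.9 ± 6.74 CPM in CD4 WT. Bcat2, the mitochondrial enzyme that removes the amino group of leucine, fell to 49.5 ± 2.14 CPM in CD4 KO, against 101 ± 2.27 CPM in CD4 WT, and to 65.0 ± 5.31 CPM in DP KO, against 136 ± 9.75 CPM in DP WT. Srm, which makes spermidine, was at 41.2 ± 2.17 CPM in DP KO and 17.6 ± 3.49 CPM in DP WT. The DP count of 14 was 8 without DP WT replicate 1, 8 without DP WT replicate 2 and 3 with DP WT replicate 3 alone.

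The amino acid sensing genes of mTORC1, the kinase complex that couples growth to amino acids, did not lean to a side, with 5 higher and 7 lower of 34 in CD4 KO (median 0.01) and 6 higher and 3 lower of 34 in DP KO (median -0.03). Sesn3, a sestrin that restrains mTORC1, fell to 41.1 ± 2.13 CPM in CD4 KO, against 120.1 ± 9.41 CPM in CD4 WT (log2 fold change -1.55 ± 0.08, edgeR adjusted p = 5.67e-07). Rragd, a Rag GTPase that recruits mTORC1 to the lysosome, fell to 4.96 ± 1.47 CPM in DP KO, against 35.01 ± 2.69 CPM in DP WT (log2 fold change -2.79 ± 0.20, edgeR adjusted p = 8.95e-06). The DP count of 9 was 5 with DP WT replicate 3 alone.

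Among the regulators of transporter genes, 4 were higher and 7 lower of 15 in CD4 KO (median -0.14), and 6 were higher and 1 lower of 15 in DP KO (median 0.06). Myc, which drives growth and several amino acid carriers, was at 134 ± 19.3 CPM in DP KO and 33.4 ± 3.70 CPM in DP WT (log2 fold change 2.02 ± 0.12, edgeR adjusted p = 8.91e-07). Mycn, of the same family, was at 20.5 ± 5.63 CPM in CD4 KO and 1.07 ± 0.245 CPM in CD4 WT, and at 28.6 ± 5.59 CPM in DP KO and 8.17 ± 0.714 CPM in DP WT. Nedd4l, a ubiquitin ligase known to remove transporters from the membrane, rose by 0.72 ± 0.07 in CD4 KO (edgeR adjusted p = 1.94e-05). Tfeb fell to 7.06 ± 0.981 CPM in CD4 KO, against 17.7 ± 1.70 CPM in CD4 WT (log2 fold change -1.32 ± 0.13, edgeR adjusted p = 3.71e-05). Srebf1 fell to 157 ± 11.3 CPM in DP KO, against 250 ± 18.8 CPM in DP WT (log2 fold change -0.66 ± 0.08, edgeR adjusted p = 0.000163). The DP count of 7 was 4 with DP WT replicate 3 alone.

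Of the other amino acid carriers, 3 were higher and 5 lower of 15 in CD4 KO (median 0.04), and 4 were higher and 2 lower of 15 in DP KO (median 0.04). Slc43a1, a carrier of leucine and other large neutral amino acids, was at 63.3 ± 6.49 CPM in CD4 KO and 8.32 ± 0.829 CPM in CD4 WT (log2 fold change 2.93 ± 0.11, edgeR adjusted p = 1.77e-07), and at 112 ± 5.04 CPM in DP KO and 80.4 ± 1.00 CPM in DP WT (0.49 ± 0.07, edgeR adjusted p = 0.000248). The effect was larger in CD4 cells by 2.44 ± 0.12 (edgeR adjusted p = 8.03e-09). Slc43a1 was high in DP WT and low in CD4 WT, as the DP markers were, and the part of DP cells in the CD4 sort was not tested. Slc36a4, a proton-coupled type of amino acid carrier, fell by 0.77 in CD4 KO (edgeR adjusted p = 8.36e-05) and by 0.81 in DP KO (edgeR adjusted p = 0.00114) on the log2 scale. Of the further SLC7 and SLC3 genes, 0 were higher and 2 lower of 4 tested in CD4 KO (median -0.73) and 0 of 3 were called in DP KO (median -0.21), all at low levels. Of the further SLC38 and SLC1 genes, 2 were higher and 0 lower of 5 in CD4 KO (median -0.03) and 0 higher and 2 lower of 5 in DP KO (median 0.20), among them Slc38a9, the arginine sensor of the lysosome, with -0.41 ± 0.08 in DP KO (edgeR adjusted p = 0.00380). The calls in these short families depended on single libraries: in CD4 KO 0 to 1 SLC7 and SLC3 genes and 0 to 2 SLC38 and SLC1 genes were called when a CD4 library was left out, and in DP KO the 2 calls of the SLC38 and SLC1 genes fell to 1 without DP KO replicate 1 or 2 or DP WT replicate 2. Of the SLC7 and SLC3 genes 1 was called in DP KO without DP KO replicate 1, 2 or 3 or DP WT replicate 2 or 3, 1 in the joint model of 12 libraries and 2 with no low-count filter.

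**Figure D5:**
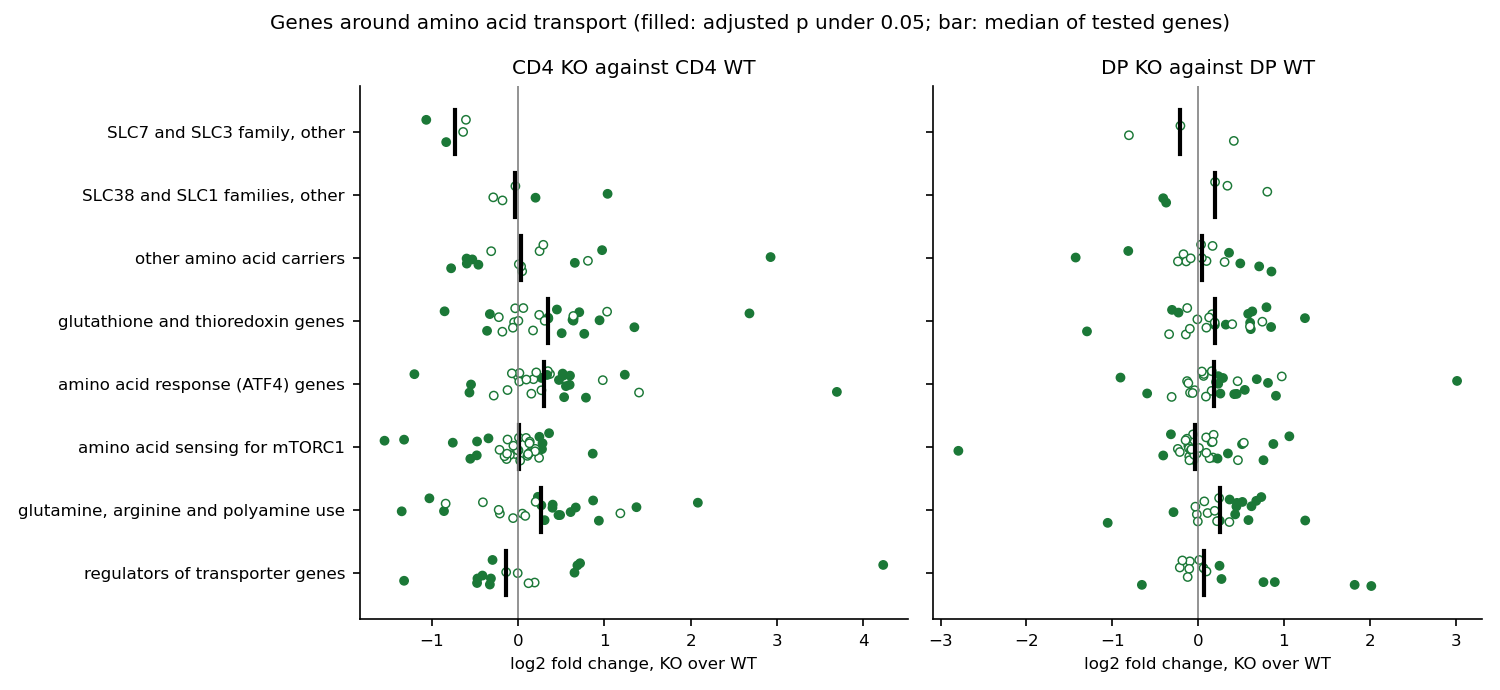
Log2 fold change of KO over WT (horizontal axes) for the tested genes of 8 lists (rows), in CD4 (left) and DP thymocytes (right); points are genes, filled where the edgeR adjusted p is under 0.05, and the bar is the median of the list. Medians lie between -0.73 and 0.35 in CD4 and between -0.21 and 0.25 in DP.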

How the data were processed

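Poly(A) RNA of sorted mouse thymocytes was sequenced as paired reads of 150 bases, per the labels' protocols. Raw gene counts were deposited in 2 tables, with 6 libraries of a stage in each, and the counted exon length in bases of each gene as a further deposited column. The submitters' processing notes name mm10, Subread 1.0.1, DESeq2 and R 4.1.5; no source used here gives the aligner or the strand setting. Libraries were placed in groups by sample title.

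Counts were tested over all genes with edgeR 4.0.16 (R 4.3.3): quasi-likelihood test with robust fitting, TMM, default low-count filter, and Benjamini-Hochberg adjusted p under 0.05. Each comparison of groups used its own 6 libraries; the difference between stages used all 12. Script checks on simulated counts preceded the fits. The transporters and the lists were chosen with earlier results of these data known. All 10 transporters are named; of each list, up to 3 genes with the smallest adjusted p in a comparison could be named, and not all are. Satb1, cell markers, Xist and Oxa1l are named as checks. Alternatives were DESeq2 1.42.0 size factors, its Wald test, limma-voom (limma 3.58.1), other low-count filters, a joint model of the 12 libraries, a block for the replicate number, each library left out, and a lone DP WT library. For the ratio of heavy to light chains they were counts not divided by length and other sets of light chains.

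The replicate number equals the batch given in the labels, so same-numbered libraries are paired by batch. The main tests used the group only and not this pairing, which entered as the block among the alternatives. Deviations of same-numbered libraries from the group means correlated with 0.12 to 0.34 in CD4 and 0 to 0.18 in DP between KO and WT. Between stages the values were 0.15 to 0.26 in WT and 0.23 to 0.49 in KO. Xist differed within such pairs, at 0.845 CPM in DP WT replicate 1 against 335 CPM in CD4 WT replicate 1, and at 0.273 against 284 CPM for replicate 2. Replicates varied beyond sampling noise (chi-square per degree of freedom 13.8 to 45.8), and all 12 were kept. A promoter stretch and a marker list are not reported here.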

Additional observations from a re-analysis of the deposited data

Results flagged for a closer look

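The effect of the Satb1 knockout differed between the stages for 6 of the 10 transporters, beside 27.6% of 18431 genes tested. This was by the test of the difference itself (effect in CD4 minus effect in DP, log2 scale). The difference was 3.00 for Slc7a11, -0.56 for Slc7a1, -0.60 for Slc7a5, -0.39 for Slc7a6, 0.49 for Slc1a5 and 0.29 for Slc38a1. The calls of Slc1a5 and Slc38a1 were lost on leaving out most of the libraries singly, as given above.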

How the results depend on the processing

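The direction and the call were the same as reported in 660 of the tests of single transporters under an alternative; 36 lost the call, 13 gained it and 21 changed sign. Among alternatives other than leaving out a library, the number of transporters called was 6 in CD4 KO against WT under each, and 5 to 8 in DP KO against WT. The replicate block raised the genes called between CD4 KO and DP KO to 6658, beside 3685 without it, and gained the transporter calls given in the report; it changed no other transporter call. With DP WT replicate 3 as the lone DP WT library, 2036 genes were called in DP KO against WT, beside 5179, and 3 transporters and 3370 genes in the difference between stages, beside 6 and 5088. Leaving out a library gave 2223 to 3959 genes between CD4 KO and DP KO, with 2223 without CD4 KO replicate 1, 2318 without CD4 KO replicate 2 and 2403 without DP KO replicate 1. The ratio of heavy to light chains turned to -0.0808 in CD4 without Slc7a6, beside 0.13.

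Changes of sign were as follows, with the cause not tested. In DP KO against WT, Slc3a2 was -0.0198 with DESeq2 size factors, -0.0200 with DESeq2, -0.00294 with voom, -0.00365 with a mean count of at least 10, -0.0105 in the joint model, -0.00160 with the replicate block and -0.0129 with the lone DP WT library. With a library left out, Slc3a2 ranged from -0.0350 (without DP KO replicate 3) to 0.0525 in DP, below 0 also without any DP WT library, and from -0.0195 (without CD4 WT replicate 2) to 0.206 in CD4. Slc38a2 in CD4 ranged from -0.125 to 0.0985, above 0 without CD4 KO replicate 1 or 2 or CD4 WT replicate 3. Between stages in WT, Slc1a5 was 0.000923 with the lone DP WT library. Between stages in KO, Slc7a5 ranged from -0.0109 (without CD4 KO replicate 2) to 0.124 and Slc38a2 from -0.248 to 0.0122 (without DP KO replicate 3). In the difference between stages, Slc3a2 ranged from -0.0327 (without CD4 WT replicate 2) to 0.182 and Slc7a7 from -0.323 to 0.0266 (without DP WT replicate 1), and Slc7a7 was 0.0720 with the lone DP WT library. Slc38a2 in DP KO also passed with DESeq2 (adjusted p = 0.0104), voom (0.0476), no low-count filter (0.000135) and without DP KO replicate 3 (0.00736), and it did not in the other alternatives run.

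With 3 libraries a group, an exact test over libraries cannot go below 0.1, and a lone library is assumed to vary like the other groups in its comparison. Slc7a8, with as few as 22 counts in a library, is the member that depth limits most.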

Other observations

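Markers of other cells that a thymocyte sort could hold were summed in each library, and their part in the transporter results was not tested. The 4 dendritic cell markers summed to 10.3 to 21.7 CPM in CD4 KO, 11.3 to 25.4 CPM in CD4 WT, 1.501 to 5.46 CPM in DP KO and 2.81 to 4.75 CPM in DP WT. The 2 markers of NK cells summed to 0.903 to 1.87 CPM in CD4 KO, 7.28 to 17.9 CPM in CD4 WT, 0.323 to 0.460 CPM in DP KO and 0.617 to 1.61 CPM in DP WT. They went opposite ways in CD4 cells. Klrb1c made up nearly all of the CD4 WT sum, at 7.28 to 17.8 CPM. Ncr1, at low levels throughout, was at 0 to 0.0962 CPM in CD4 WT and 0.162 to 0.433 CPM in CD4 KO. The 9 markers of epithelium and stroma, mostly Pecam1, summed to 169 to 187 CPM in CD4 KO, 194 to 215 CPM in CD4 WT, 169 to 191 CPM in DP KO and 146 to 151 CPM in DP WT. Foxn1 was at 0 in every CD4 WT library, Pdgfra in every DP KO library and Krt5 in every DP WT library.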
